A study of Homo sapiens with 11 samples.

Results

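The genes examined were 3 Notch receptors (NOTCH1, NOTCH2 and NOTCH3), 2 ligands (JAG1 and DLL4) and 5 target genes (HES1, HES4, HEY1, HEYL and NRARP). They were taken by symbol from the deposited table, where each matched 1 row, so that 10 of 60605 features were used. ARPE-19 is an established human cell line from the retinal pigment epithelium (RPE), the pigmented layer beneath the photoreceptors. Polyadenylated RNA had been sequenced from stable ARPE-19 lines on day 4 of expression of an introduced open reading frame (ORF). The control line expressed GFP, a fluorescent protein (3 libraries). The other 4 lines, with 2 libraries each, expressed the reprogramming factors Oct4, Sox2 or Klf4 alone, or OSK, which is the 3 together. All groups were thus transduced stable lines, and no parental culture was compared. The species of the ORFs, the promoter that drove them and whether a line was 1 clone are not given in the sources used here. Library names of the 4 factor lines carry the letters mC, which those of GFP lack, and their meaning is not given. What mC stands for cannot be told apart from the factors in comparisons with GFP. Nothing in the labels says that replicates came from separate cultures, so the p-values measure the spread between libraries, which may be technical.

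Notch signalling passes between touching cells. A ligand of the Jagged or Delta-like family on 1 cell binds a Notch receptor on its neighbour, the receptor is cut by an ADAM protease and then by gamma-secretase, and its intracellular part moves to the nucleus. There it joins the DNA-binding protein RBPJ and a Mastermind coactivator and switches on target genes, among them the HES and HEY transcriptional repressors and the feedback inhibitor NRARP. In the eye the pathway is best known for keeping progenitor cells of the optic cup undifferentiated.

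RBPJ recognises the letters TGGGAA. Of the 250 bases before the RefSeq start of each target gene, those of HES1 and HES4 are shown because they hold this core, and those of NRARP because they hold adjoining SOX and octamer motifs. They were taken from RefSeq promoters (build GRCh38.p14), in which 9 of the 10 genes were matched (not HEY1). RefSeq and GENCODE place some starts differently: the GENCODE gene covers 3 of these 250 bases for HES1, 75 for HES4, 250 for HEYL and 0 for NRARP, so the HEYL stretch lies in the first exon of the GENCODE gene and is not shown. The sequences are the bases outside the GENCODE gene (for HES4 5 more, to the end of the core) at chr3:194135898-194136144 (HES1, + strand), chr1:1000168-1000347 (HES4, - strand) and chr9:137302272-137302521 (NRARP, - strand), written 5′ to 3′ in the direction of transcription. Capitals mark TGGGAA in HES1 and HES4, and in NRARP the SOX motif and the octamer.
HES1: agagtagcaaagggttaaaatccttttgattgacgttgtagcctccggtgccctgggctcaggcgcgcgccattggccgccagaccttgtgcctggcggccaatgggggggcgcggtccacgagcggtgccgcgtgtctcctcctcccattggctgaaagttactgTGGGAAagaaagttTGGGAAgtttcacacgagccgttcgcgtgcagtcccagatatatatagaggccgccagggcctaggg
HES4: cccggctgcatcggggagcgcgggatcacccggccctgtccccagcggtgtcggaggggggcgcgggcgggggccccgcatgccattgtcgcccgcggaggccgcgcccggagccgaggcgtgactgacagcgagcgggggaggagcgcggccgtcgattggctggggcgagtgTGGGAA
NRARP: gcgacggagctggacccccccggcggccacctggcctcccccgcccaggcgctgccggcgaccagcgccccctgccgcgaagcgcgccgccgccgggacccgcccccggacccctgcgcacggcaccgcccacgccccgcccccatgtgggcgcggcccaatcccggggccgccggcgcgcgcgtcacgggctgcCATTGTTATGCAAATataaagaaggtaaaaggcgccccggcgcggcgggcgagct

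HES1 held 2 copies of TGGGAA in the same orientation, starting 84 and 70 bases before the RefSeq start and parted by 8 bases. HES4 had 1 copy, starting 76 bases before the start. HEYL had 2 copies, 1 on each strand, at 178 and 99 bases. NRARP had none, and none was found before the starts of NOTCH1, NOTCH2, NOTCH3, JAG1 or DLL4. Over all 35116 RefSeq promoters searched in the same way on both strands, 20.9% held the core, against 3 of the 9 matched genes. The NRARP stretch contained the SOX motif CATTGTT directly followed by the octamer ATGCAAAT, a layout known as a composite SOX and POU site. Of all promoters 2.87% held CATTGTT and 1.63% held ATGCAAAT, and the joined CATTGTTATGCAAAT was found in 1, that of NRARP. The letters GGGTGTG, a KLF motif held by 6.63% of promoters, were found before the RefSeq starts of HES4 (as CACACCC, 50 bases away) and NOTCH3. The HES4 match lies within the 75 bases covered by the GENCODE gene, and so outside the stretch shown. These matches describe the reference sequence and not binding in these cells.

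The values are normalised read counts, the authors' read counts scaled by library. Recovered depth was 15053300 to 19791775 reads. Each delivered factor gene was highest in the lines labelled for it: POU5F1 (the gene of Oct4) ranged from 19020 to 67326 there against at most 445.6 elsewhere, SOX2 from 17582 to 29141 against at most 197, and KLF4 from 22142 to 24470 against at most 248. GFP replicate 1 and OSK replicate 1 stood apart, with 42956 and 32493 features detected against 25853 to 26971 in the other 9 libraries. Olfactory receptor genes, normally silent outside the nose, were detected at 67.7% and 23.0% in those libraries and at 4.94% to 8.15% in the others. For the 10 genes, the main results that rest on either library are therefore given with and without it. Changes of single other Notch pathway genes are given with all libraries only. Of 15 RPE markers, RPE65, TTR and DCT had at most 3 reads in 10, 8 and 10 of the 11 libraries, while KRT8, KRT18, OTX2 and MITF were detected in all. The summed RPE markers were 33523 to 37192.5 in GFP and 15861.5 to 28784 in the other lines, with the general epithelial keratins KRT8 and KRT18 as its largest parts (medians of 13573 and 4898). Of 8 endothelial markers KDR carried most counts, and CDH5, CLDN5 and ERG had at most 3 reads in 9, 9 and 10 libraries. The summed endothelial list was 1095 to 1498 in GFP and 544 to 896 in the other lines, and the summed mural list, mostly PDGFRB, 13072 to 15190 and 5674 to 10769. Of 6 mural markers, ABCC9 and KCNJ8 had at most 3 reads in 8 and 10 libraries. The summed leukocyte list was 89.4 in GFP replicate 1 and 4.40 to 15.2 in the other libraries. The part of these lists in the results that follow was not tested. A lower count in bulk RNA cannot separate fewer expressing cells from less RNA per cell.

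**Figure D1:**
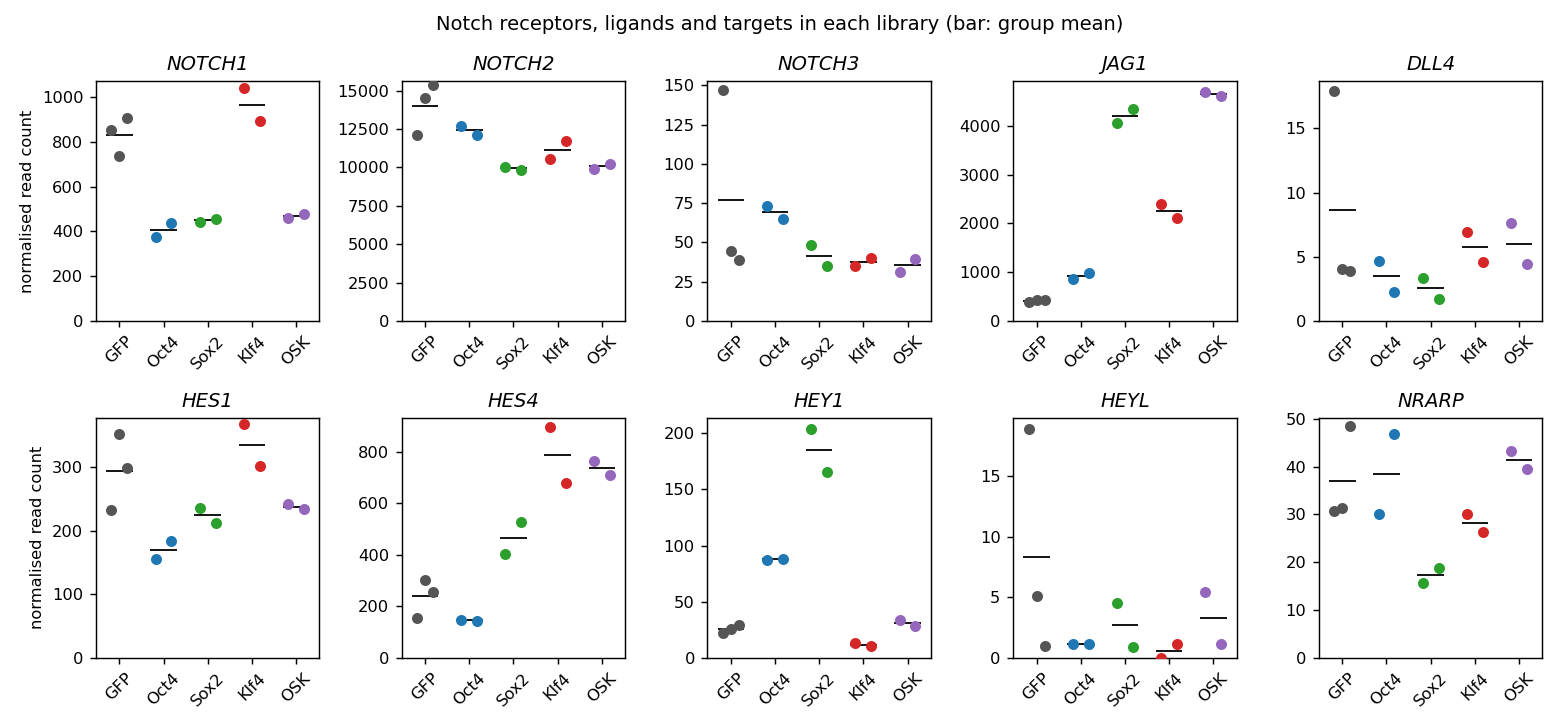
Normalised read count of each of the 10 genes (vertical axes, each from 0) in each library, by line (horizontal axes), with a bar at the group mean. JAG1 lay at 379 to 430 in GFP and at 4057 or more in the Sox2 and OSK libraries, HEY1 was highest in the Sox2 libraries, and NOTCH3, DLL4 and HEYL each had their highest value in GFP replicate 1.

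Differences were tested with limma on log2(value + 1) over the 18828 genes that reached a value of 10 in 2 or more libraries, and adjusted p-values are those of Benjamini-Hochberg over these genes. Of the 10 genes 8 passed this filter. DLL4 and HEYL did not and are described by their counts alone. Against GFP, 5 of the 8 genes differed in the Oct4 line, 2 upwards and 3 downwards, beside 37.3% of all genes tested (20.1% higher, 17.2% lower). In the Sox2 line 6 changed (3 higher, 3 lower), beside 41.6% (21.7% higher, 19.9% lower). In the Klf4 line 4 changed (2 higher, 2 lower), beside 33.5% (17.6% higher, 16% lower). In OSK 4 changed (2 higher, 2 lower), beside 39.7% (19.7% higher, 20% lower). These are 62.5%, 75%, 50% and 50% of 8 genes. Leaving out GFP replicate 1 gave 6, 7, 4 and 5 genes, beside 39.7%, 43.6%, 36.2% and 43% of all 18235 genes then tested. Leaving out both GFP replicate 1 and OSK replicate 1 gave 6, 7, 4 and 4, beside 39.4%, 43.5%, 35.8% and 35.3% of 18035. The median log2 change of the 8 genes was -0.05, -0.43, -0.06 and -0.05 in the Oct4, Sox2, Klf4 and OSK lines, against -0.02, -0.02, -0.02 and -0.01 over all genes tested. Without regard to sign the median was 0.72, 0.94, 0.55 and 0.64, against 0.37, 0.41, 0.34 and 0.38. These 4 comparisons share the GFP libraries.

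**Figure D2:**
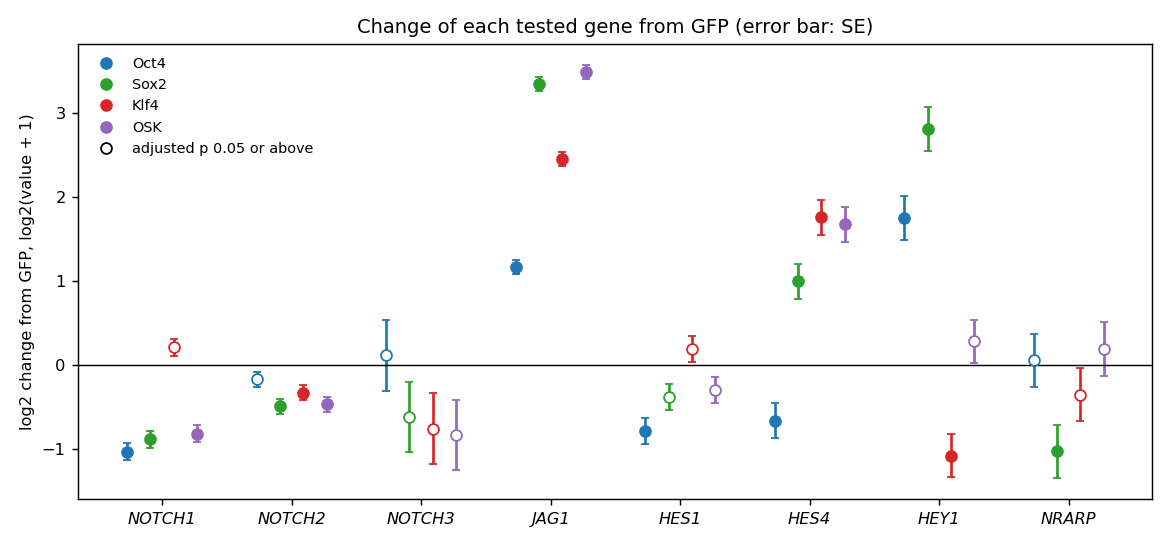
Log2 change from GFP on the log2(value + 1) scale (vertical axis) of the 8 tested genes (horizontal axis) in each line, with the SE as error bar and open points where the adjusted p-value was 0.05 or above. JAG1 lay above 0 in all 4 lines, from 1.17 to 3.50, while HES4 and HEY1 lay on different sides of 0 in different lines.

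NOTCH1 and NOTCH2 are the receptors that these cells expressed at appreciable levels. Per kilobase of annotated exon, the mean GFP level was 833 normalised counts for NOTCH2, 80.1 for NOTCH1 and 8.17 for NOTCH3. NOTCH2 made up 85.8% to 94.5% of the summed per-kilobase level of the 3 receptors in every library. Values of NOTCH2 are uncertain in part, because 23.4% of the 50-base stretches in its transcripts also occur in other genes, mainly NBPF19, and also NOTCH2NLA, NBPF14 and NBPF26. Of the partial copies of NOTCH2, NOTCH2NLA had 19.5 to 58.2 and NOTCH2NLC 44.5 to 79.0 normalised counts in any library. NBPF19 was also low (16.0 to 31.7), whereas NBPF14 had 564 to 783 and NBPF26 444 to 605.

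NOTCH1 (chromosome 9, 136494433 to 136545786) had 852, 737 and 905 normalised counts in the 3 GFP libraries. The Oct4 libraries had 376 and 437, the Sox2 libraries 444 and 456, the Klf4 libraries 1039 and 891, and the OSK libraries 461 and 480. All libraries of Oct4, Sox2 and OSK thus lay below all of GFP and Klf4, which overlapped each other. Relative to GFP, NOTCH1 changed by -1.03 on the log2 scale with Oct4 (SE 0.10; adjusted p = 8.71e-07), -0.88 with Sox2 (SE 0.10; adjusted p = 3.6e-06) and -0.82 with OSK (SE 0.10; adjusted p = 9.31e-06). With Klf4 the difference was 0.22 (adjusted p = 0.124). In the order of levels Klf4, GFP, OSK, Sox2, Oct4, the step between GFP and OSK was the only one that passed among the 4 neighbouring pairs. OSK was below the Klf4 line by 1.03 on the log2 scale, a change of -1.03 (SE 0.11; adjusted p = 5.17e-06).

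NOTCH2 (chromosome 1, 119911553 to 120069626) had 12131, 14497 and 15351 normalised counts in GFP. With Oct4 the values were 12704 and 12113, with Sox2 10014 and 9860, with Klf4 10530 and 11752, and in OSK 9919 and 10249. Every library of Sox2, Klf4 and OSK lay below GFP, whereas Oct4 overlapped it. The changes were small: -0.49 with Sox2 (SE 0.09; adjusted p = 3.36e-04), -0.47 in OSK (adjusted p = 5.35e-04) and, for Klf4, -0.32 (adjusted p = 0.0103). The Klf4 call was lost when GFP and the compared line were fitted alone (adjusted p = 0.0722) and without Klf4 replicate 1 (-0.24, adjusted p = 0.143). The difference with Oct4 was -0.17 (adjusted p = 0.162), and it passed without GFP replicate 1 (-0.27, adjusted p = 0.00212). No neighbouring pair in the order GFP, Oct4, Klf4, OSK, Sox2 passed the test.

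NOTCH3 (chromosome 19, 15159038 to 15200981), a receptor best known from the mural cells of blood vessels, was low. The 3 GFP libraries had 147, 44.5 and 38.9 normalised counts, the first of them in replicate 1. The Oct4 libraries had 73.2 and 65.2, the Sox2 libraries 48.2 and 35.1, the Klf4 libraries 34.7 and 40.0, and the OSK libraries 31.4 and 39.6. Oct4 lay above the other factor lines in both libraries, and GFP overlapped every factor line. No comparison with GFP passed, with log2 differences of 0.12, -0.61, -0.75 and -0.83 in the Oct4, Sox2, Klf4 and OSK lines (adjusted p from 0.134 to 0.856). These values rest on GFP replicate 1: without it the Oct4 difference was 0.72 (adjusted p = 0.0551) and the others lay between -0.23 and -0.01. Without GFP replicate 3 the OSK difference passed (-1.18, adjusted p = 0.0424). Without GFP replicate 1, NOTCH3 was also higher in the Oct4 line than in Klf4 (0.87, adjusted p = 0.0179). It was lower in OSK than in Oct4 in that fit (-0.95, adjusted p = 0.0112). Neither difference passed with all libraries (adjusted p = 0.147 and 0.117). With OSK replicate 1 left out as well, the first still passed (adjusted p = 0.0185) and the second did not (-0.79, adjusted p = 0.086).

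JAG1, the gene of the ligand Jagged1, showed the widest response of the ligands and receptors. At chromosome 20, 10637684 to 10673999, it had 379, 430 and 426 normalised counts in GFP. With Oct4 the values were 869 and 990, the Klf4 libraries 2405 and 2115, the Sox2 libraries 4057 and 4351, and the OSK libraries 4698 and 4603. No 2 groups overlapped. Relative to GFP the mean level was 2.26 times as high with Oct4, 5.49 times with Klf4, 10.2 times with Sox2 and 11.3 times with OSK. The log2 changes were 1.17 (adjusted p = 1.81e-08), 2.45 (adjusted p = 1e-11), 3.35 (adjusted p = 2.16e-13) and 3.50 (adjusted p = 9.69e-14), each with an SE of 0.08.

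JAG1 in OSK was above the Oct4 line by 2.32 (adjusted p = 2.21e-11) and above the Klf4 line by 1.04 (adjusted p = 4.7e-07), both on the log2 scale with an SE of 0.09. OSK and Sox2 did not differ by the test (0.15, SE 0.09; adjusted p = 0.225), although both OSK libraries were above both Sox2 libraries. All other neighbours in the order OSK, Sox2, Klf4, Oct4, GFP differed. The JAG1 changes from GFP kept their call under all 21 alternatives run, with the OSK change between 3.42 and 3.53. A gene on the opposite strand, listed by its Ensembl ID and with at most 9.93 normalised counts in any library, shares 79 exon bases (0.85%) with JAG1.

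DLL4, a Delta-like ligand prominent in the endothelium, was at the limit of detection. GFP replicate 1 had 17.9 normalised counts, with 4.05 and 3.89 in the other GFP libraries. The Oct4 libraries had 4.64 and 2.29, the Sox2 libraries 3.37 and 1.71, the Klf4 libraries 6.94 and 4.57, and the OSK libraries 7.59 and 4.40. These are 2 to 7 reads outside GFP replicate 1, where there were 18. Differences between lines were not detectable at this depth. Per kilobase of exon, JAG1 made up at least 91.6% of the summed level of the 2 ligands in each library, the lowest being GFP replicate 1, and at least 99.0% in every factor library.

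HES1, the best studied Notch target and a repressor of differentiation genes, lies at chromosome 3, 194136145 to 194138732. It had 233, 352 and 299 normalised counts in GFP. With Oct4 the values were 156 and 184, with Sox2 236 and 213, with Klf4 368 and 303, and in OSK 242 and 234. The Oct4 libraries were below all others, and GFP overlapped Sox2, Klf4 and OSK. HES1 fell with Oct4 (log2 change -0.78, SE 0.15; adjusted p = 8.82e-04). With Sox2, Klf4 and OSK the differences from GFP were -0.37 (adjusted p = 0.0652), 0.20 (adjusted p = 0.363) and -0.29 (adjusted p = 0.159). The lowest GFP value was that of replicate 1, and without it HES1 was lower also with Sox2 (-0.53, adjusted p = 0.00472) and with OSK (-0.45, adjusted p = 0.0154). Without both GFP replicate 1 and OSK replicate 1 the OSK difference did not pass (-0.47, adjusted p = 0.0523), while that with Sox2 did (adjusted p = 0.0074). No neighbours in the order Klf4, GFP, OSK, Sox2, Oct4 differed by the test.

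HES4 (chromosome 1, 998962 to 1000172), a HES repressor that mice lack, moved over a wider range than HES1. It had 155, 303 and 256 normalised counts in GFP. The Oct4 libraries had 145 and 144, the Sox2 libraries 402 and 527, the Klf4 libraries 894 and 679, and the OSK libraries 762 and 711. GFP lay above Oct4 and below Sox2, Klf4 and OSK without overlap. HES4 rose by 1.00 with Sox2 (SE 0.21; adjusted p = 0.00103), 1.76 with Klf4 (adjusted p = 7.27e-06) and 1.68 with OSK (adjusted p = 8.47e-06). It fell with Oct4 (-0.66, adjusted p = 0.0208), a call that was lost without GFP replicate 2 (-0.46, adjusted p = 0.0868) or 3 (adjusted p = 0.0715), without either Oct4 library (adjusted p = 0.0948 and 0.101), with no filter (adjusted p = 0.0728) and when GFP and the compared line were fitted alone (adjusted p = 0.069). Without GFP replicate 1, the lowest GFP library, the fall was -0.94 (adjusted p = 3.51e-05) and the rises were 0.72, 1.48 and 1.40.

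HES4 in OSK lay close to the Klf4 line (difference -0.08, SE 0.23; adjusted p = 0.85), the top pair of the order Klf4, OSK, Sox2, GFP, Oct4, and all lower neighbours differed. OSK exceeded Sox2 by 0.68 (adjusted p = 0.0268), which did not pass without either OSK library (adjusted p = 0.125 and 0.077) or without Sox2 replicate 1 (0.48, adjusted p = 0.218). Per kilobase of exon, the ratio of HES4 to HES1 was 1.22 to 1.59 in GFP, 1.44 to 1.72 with Oct4, 3.14 to 4.56 with Sox2, 4.13 to 4.48 with Klf4 and 5.59 to 5.81 in OSK. The ratio thus overlapped between GFP and Oct4 and was higher in every library of Sox2, Klf4 and OSK. Both genes hold the RBPJ core shown above, and a link between the core and their levels was not tested.

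HEY1 (chromosome 8, 79764010 to 79767863), a HES-related repressor known from vessel and heart development, rose with 2 factors and fell with the third. It had 21.9, 25.3 and 29.2 normalised counts in GFP. With Oct4 the values were 87.1 and 88.1, with Sox2 204 and 165, with Klf4 12.7 and 10.3, and in OSK 33.6 and 28.6. Sox2 and Oct4 lay above GFP, Klf4 lay below it and OSK overlapped it. The log2 change was 2.81 with Sox2 (SE 0.26; adjusted p = 2.48e-07), a mean 7.26 times that of GFP, and 1.75 with Oct4 (adjusted p = 5.26e-05). With Klf4 it was -1.08 (adjusted p = 0.00403), from 9 and 11 reads, and this call was lost when GFP and the compared line were fitted alone (adjusted p = 0.0711). In OSK the difference was 0.29 (SE 0.26; adjusted p = 0.423).

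HEY1 in OSK was below Oct4 (-1.47, SE 0.28; adjusted p = 5.39e-04) and below Sox2 (-2.53, adjusted p = 2.48e-06), and above Klf4 (1.36, adjusted p = 0.00221). Of the neighbours in the order Sox2, Oct4, OSK, GFP, Klf4, the pair of OSK and GFP was the one that did not differ. The difference of Oct4 from Sox2 (-1.06, SE 0.28) lost its call without Sox2 replicate 1, where it was -0.91. The Sox2 line was 16.1 times as high as the Klf4 line in mean counts (log2 change 3.89, SE 0.28; adjusted p = 1.49e-08). HEYL (chromosome 1, 39624153 to 39639945), another HEY repressor, had 18.9, 5.06 and 0.97 normalised counts in GFP and from 0 to 5.42 in the factor lines. Its highest values outside GFP replicate 1 were 5 reads, in GFP replicate 2 and OSK replicate 1, so no difference was detectable.

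NRARP (chromosome 9, 137300482 to 137302251) encodes a small ankyrin protein that shortens the life of the active receptor. It had 30.8, 31.4 and 48.6 normalised counts in GFP. The Oct4 libraries had 30.2 and 46.9, the Sox2 libraries 15.7 and 18.8, the Klf4 libraries 30.1 and 26.3, and the OSK libraries 43.4 and 39.6. Both Sox2 libraries lay below all others, and GFP overlapped Oct4 and OSK. NRARP fell with Sox2 (-1.03, SE 0.32; adjusted p = 0.0165) on 14 and 22 reads. The call was lost with DESeq2 (adjusted p = 0.0555), without GFP replicate 3 (-0.82, adjusted p = 0.0743) and without Sox2 replicate 1 (-0.90, adjusted p = 0.109). In OSK it was above the Sox2 line (1.22, SE 0.35; adjusted p = 0.0106), which did not pass without Sox2 replicate 1 (adjusted p = 0.0665) or OSK replicate 1 (adjusted p = 0.0649). The differences from GFP with Oct4, Klf4 and OSK were 0.06, -0.35 and 0.19 (adjusted p = 0.908, 0.44 and 0.679), and no neighbours in its order of levels differed. The joined SOX and octamer motif stands before this gene, whose level in the Sox2 line was the lowest of the 5 groups. A link between the motif and that level was not tested.

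To ask how the combination related to its parts, OSK was compared with each single factor. OSK differed from Oct4 in 5 of the 8 genes (JAG1, HES4 and HES1 higher, NOTCH2 and HEY1 lower), beside 40.3% of all genes (18.4% higher, 21.9% lower). It differed from Sox2 in 3 (HES4 and NRARP higher, HEY1 lower), beside 40.5% (20% higher, 20.5% lower). It differed from Klf4 in 3 (JAG1 and HEY1 higher, NOTCH1 lower), beside 21.5% (9.56% higher, 11.9% lower). Among the calls against Oct4, HES1 (0.49, adjusted p = 0.0306) and NOTCH2 (-0.30, adjusted p = 0.0223) missed the threshold without Oct4 replicate 1 and without either OSK library, which left 3 genes. Their differences then were 0.37 to 0.51 for HES1 and -0.32 to -0.26 for NOTCH2. NOTCH2 also missed it without Oct4 replicate 2 (-0.33, adjusted p = 0.0567), and HES1 with DESeq2 (adjusted p = 0.0693), with no filter (adjusted p = 0.0885) and without both GFP replicate 1 and OSK replicate 1 (0.47, adjusted p = 0.0501). Leaving out Sox2 replicate 1 or OSK replicate 1 left 1 gene, HEY1, different between OSK and Sox2. Among the single factors, Oct4 and Sox2 differed in 5 genes (2 higher and 3 lower with Oct4), beside 33.4% (18% higher, 15.4% lower). Oct4 and Klf4 differed in 5 (1 higher, 4 lower with Oct4), beside 41.7% (21.8% higher, 20% lower). Sox2 and Klf4 differed in 5 (2 higher, 3 lower with Sox2), beside 40.8% (20.1% higher, 20.7% lower). HES1 was lower in the Oct4 line than in Klf4 (-0.97, SE 0.17; adjusted p = 2.12e-04) and lower in Sox2 than in Klf4 (-0.57, adjusted p = 0.0128). The latter call was lost without Sox2 replicate 2 (-0.50, adjusted p = 0.0891) and without Klf4 replicate 1 (-0.43, adjusted p = 0.132).

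The log2 changes of the 3 factors alone were then added and set against the OSK change. They differed in 4 of 8 genes (2 above, 2 below the sum), beside 35.9% of all genes (15.6% above, 20.3% below). For JAG1 the single changes added up to 6.98 while OSK showed 3.50, a difference of -3.48 (SE 0.17; adjusted p = 5.95e-10). For HEY1 they added up to 3.49 while OSK showed 0.29, a difference of -3.21 (SE 0.51; adjusted p = 1.45e-04). NOTCH1 lay above its sum of -1.69 by 0.88 (SE 0.20; adjusted p = 0.00325). NOTCH2 lay above by 0.51 (adjusted p = 0.035), a call kept in 9 of 20 alternatives. HES1 did not pass (0.67, adjusted p = 0.11), but did without GFP replicate 1 (0.98, adjusted p = 0.01). HES4 in OSK, 1.68, was not separable from its sum of 2.10 (difference -0.42, SE 0.42; adjusted p = 0.467). The sign of this difference rests on GFP replicate 1. It was 0.14 without that library and 0.09 without both GFP replicate 1 and OSK replicate 1. In all 4 genes that differed, the OSK change was nearer to 0 than the sum. The share of all genes for which this held was not computed. Any difference from GFP common to the factor lines is added up over the 3 factors in the sum but not in OSK. Its part in these differences was not tested.

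**Figure D3:**
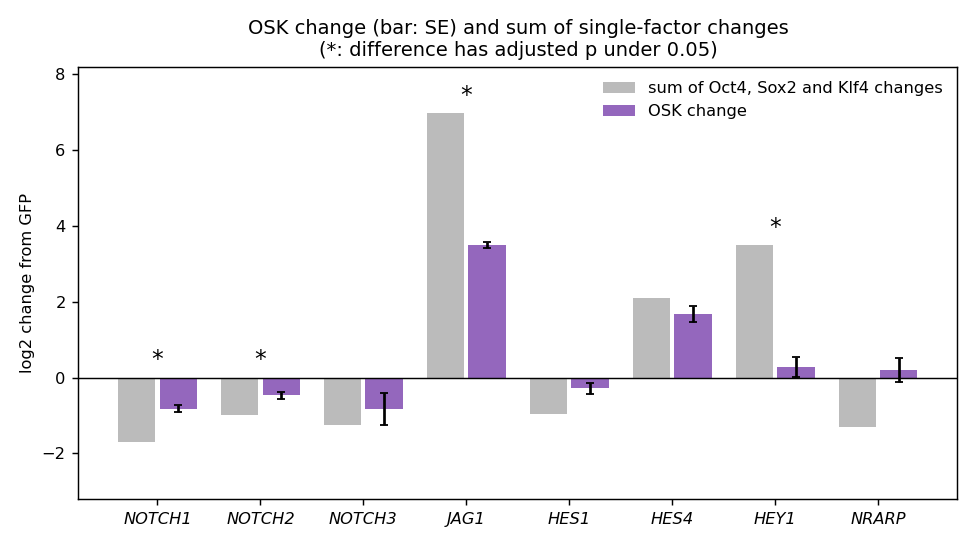
Log2 change from GFP (vertical axis) of the 8 tested genes (horizontal axis), as the sum of the Oct4, Sox2 and Klf4 changes (grey) and as measured in OSK (purple, SE as error bar), with an asterisk where the difference had an adjusted p-value under 0.05. The JAG1 sum of 6.98 and the HEY1 sum of 3.49 stand above the OSK bars of 3.50 and 0.29.

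The other genes of the pathway were taken from a list of 52, of which 45 could be tested. With Oct4 14 were higher and 7 lower, with Sox2 16 and 6, with Klf4 12 and 6, and with OSK 14 and 8. The shares of 46.7%, 48.9%, 40.0% and 48.9% stand beside 37.3%, 41.6%, 33.5% and 39.7% of all genes, and the median log2 changes of 0.04, 0.12, 0.02 and 0.07 beside -0.02, -0.02, -0.02 and -0.01. When GFP replicate 1 was left out, 27, 23, 21 and 23 passed, beside 39.7%, 43.6%, 36.2% and 43% of all genes in that fit.

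LFNG, the Lunatic fringe glycosyltransferase that alters which ligands a Notch receptor favours, had 13.9, 14.2 and 8.75 normalised counts in GFP. It had 215 and 256 in the Klf4 libraries and 60.7 and 89.1 in OSK, and from 5.81 to 15.7 with Oct4 or Sox2. It rose by 4.18 with Klf4 (SE 0.34; adjusted p = 1.39e-07) and by 2.52 in OSK (adjusted p = 2.15e-05). NEURL1B, a ubiquitin ligase that drives ligand endocytosis, rose by 3.18 with Klf4 and 1.90 in OSK (SE 0.31 each; adjusted p = 7.4e-07 and 1.08e-04). Its level was 31.3 in GFP, 288 with Klf4 and 119 in OSK on average. MIB1, the main ubiquitin ligase of Notch ligands, had 1280, 1487 and 1529 in GFP and 4789 and 4354 with Sox2, a rise of 1.68 (SE 0.09; adjusted p = 3.06e-10), and from 1225 to 1443 in the other lines.

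Among the ligands outside the 10 genes, JAG2 had 163 to 171 normalised counts in GFP, 324 and 247 with Klf4, and 109 and 94.6 in OSK. It was higher with Klf4 (0.76, SE 0.14; adjusted p = 5.75e-04) and lower in OSK (-0.71, adjusted p = 8e-04), where JAG1 was at its highest. Of the other 3 tested ligands (DLL1, DLL3 and DLK2) none passed in any line. The nearest was DLL1 with Klf4, with a difference of -1.33 (limma adjusted p = 0.0674; 0.0243 before adjustment). The Klf4 libraries had 4.63 and 24.0 normalised counts, from 4 and 21 reads, against 38.7, 20.2 and 30.1 in GFP. They overlapped GFP, and the low mean rests on Klf4 replicate 1. The receptor NOTCH4 had 125 in GFP replicate 1 against 20.2 and 30.1, and 17.2 to 40.4 in the factor lines, with no call in limma at an adjusted p under the threshold (lowest 0.154) or an unadjusted p under it (lowest 0.0753).

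Of the 9 cleavage genes, 3 were higher and 0 lower with Oct4, 4 and 2 with Sox2, 2 and 1 with Klf4, and 2 and 2 in OSK. Over all genes 20.1% were higher and 17.2% lower with Oct4, 21.7% and 19.9% with Sox2, 17.6% and 16% with Klf4, and 19.7% and 20% in OSK. FURIN, the convertase that cuts the receptor on its way to the surface, rose with Sox2 (1.30, SE 0.09; adjusted p = 1.33e-08). It also rose with Oct4 (0.65, adjusted p = 3.64e-05), but not with Klf4 (-0.13, adjusted p = 0.318) or in OSK (0.07, adjusted p = 0.593). ADAM10, the protease that cuts the bound receptor, was 0.34, 0.64 and 0.55 higher with Oct4, Sox2 and Klf4 (adjusted p at most 9.48e-04) but not in OSK (0.08, adjusted p = 0.403). Of the gamma-secretase subunits, PSEN2 fell in OSK (-1.003, adjusted p = 0.0248) and with Sox2 (-1.32, adjusted p = 0.00452). PSEN2 rests on 16 to 34 reads in OSK, 18 to 24 with Sox2 and 45 to 66 in GFP. NCSTN, another subunit, stood higher in OSK, at 3810 to 4336 normalised counts against 2681 to 3344 in GFP. APH1B fell in OSK (-1.19, SE 0.09; adjusted p = 2.39e-08), and its change in the Klf4 line was -1.01 (adjusted p = 2.24e-07).

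In the nuclear complex 5 of 6 genes were higher and 1 lower with Oct4, 4 and 0 with Sox2, 1 and 2 with Klf4, and 2 and 1 in OSK, beside the same shares of all genes (20.1% higher and 17.2% lower with Oct4, 21.7% and 19.9% with Sox2). RBPJ itself was 0.38 higher with Oct4, 0.25 with Sox2 and 0.36 in OSK (adjusted p = 5.46e-04, 0.012 and 8.42e-04), from 1108 in GFP to at most 1446 on average. The coactivator MAML1 was higher in all 4 lines, by 0.23 to 0.62. MAML3 rose with Oct4 (1.01, SE 0.18; adjusted p = 3.33e-04). Mean MAML3 was 91.9 in GFP, 189 with Oct4, 169 with Sox2, 110 with Klf4 and 108 in OSK. MAML2 fell in the Oct4, Klf4 and OSK lines (-0.52, -0.67 and -0.65) and rose with Sox2 (0.78), each with an SE of 0.08 and a adjusted p of at most 1.21e-04.

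Among corepressors, L3MBTL3, which binds RBPJ, rose with Oct4 (1.15, SE 0.08; adjusted p = 1.23e-08), TLE3 rose there too (0.67, adjusted p = 0.00279) and TLE1 fell (-0.55, adjusted p = 7.46e-04). Mean L3MBTL3 was 404 in GFP, 897 with Oct4, 568 with Sox2, 411 with Klf4 and 501 in OSK. TLE1 and TLE3 were lower with Sox2 (-0.52 and -0.45; adjusted p = 9.99e-04 and 0.0288). FBXW7, which marks the active receptor for destruction, rose with Sox2 (0.92, SE 0.11; adjusted p = 6.85e-06). Of the Deltex genes, DTX2 fell with Oct4 (-0.53, adjusted p = 0.0064) and rose with Klf4 (0.63, adjusted p = 0.00223). DTX3 fell in all 4 lines, by 0.41, 0.32, 0.50 and 0.61 with Oct4, Sox2, Klf4 and OSK (adjusted p at most 0.00225). HES6, a HES protein that can oppose HES1, fell with Oct4 (-0.56, adjusted p = 0.00246) and rose in OSK (1.199, SE 0.13; adjusted p = 1.42e-06), from 184 in GFP to 422 on average. Mean HES6 was 203 with Sox2 and 312 with Klf4.

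**Figure D4:**
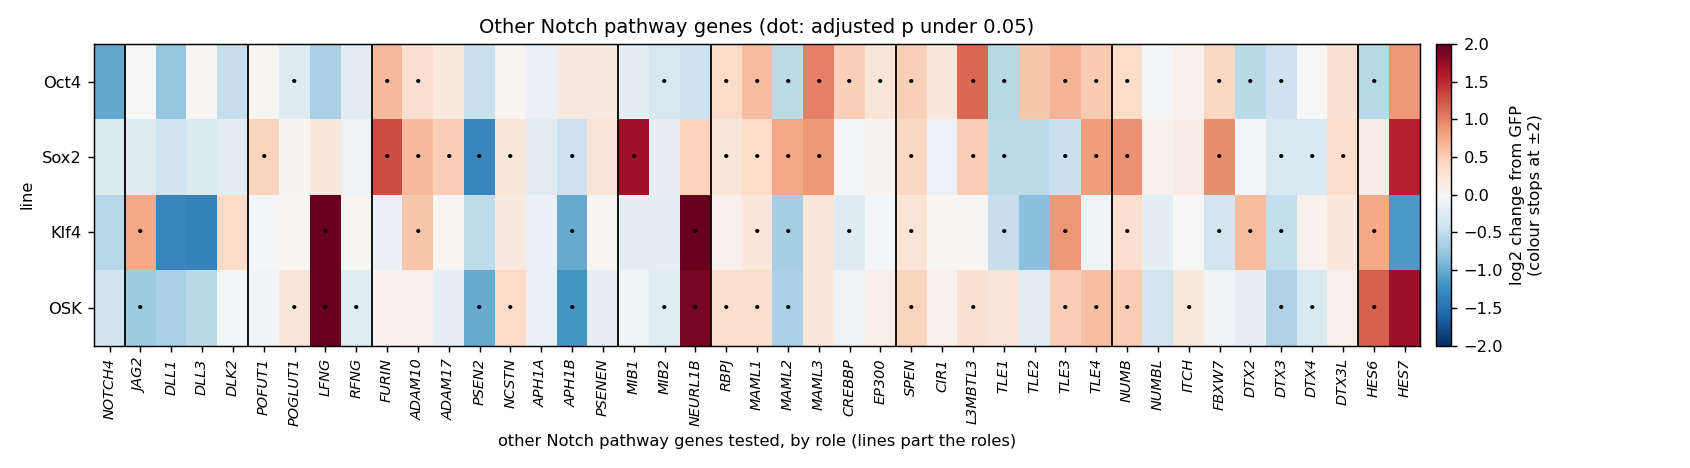
Log2 change from GFP (colour, which stops at 2 in either direction) of other Notch pathway genes tested (columns, grouped by role) in each line (rows), with a dot where the adjusted p-value was under 0.05. LFNG and NEURL1B are past the end of the scale or near it with Klf4 and OSK, and MIB1 stands out with Sox2.

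By range of group means, HEY1 (3.89), JAG1 (3.50) and HES4 (2.42 on the log2 scale) varied most among the 8 genes, at the 96.9, 95.4 and 87.5 percentile of all genes tested, and NOTCH2 least (0.49, percentile 20.7). The tested genes whose log2 levels over the 11 libraries were most like HEY1 were ADAM12, a membrane protease (Pearson r = 0.985), TMEM30A, a subunit of lipid flippases (r = 0.984), and ITGAV, the integrin alpha-V (r = 0.983). Mean ITGAV was 37120 with Sox2 and 13490 with Klf4. For JAG1 they were LMBRD1 (r = 0.9815), SERINC5 (r = 0.981) and POLR2A (r = 0.978). For HES4 they were RHOA (r = 0.969), GTF3A (r = 0.967) and MAFF (r = 0.965). The points are the same 11 libraries in 5 groups, so these coefficients mostly describe the order of the group levels.

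**Figure D5:**
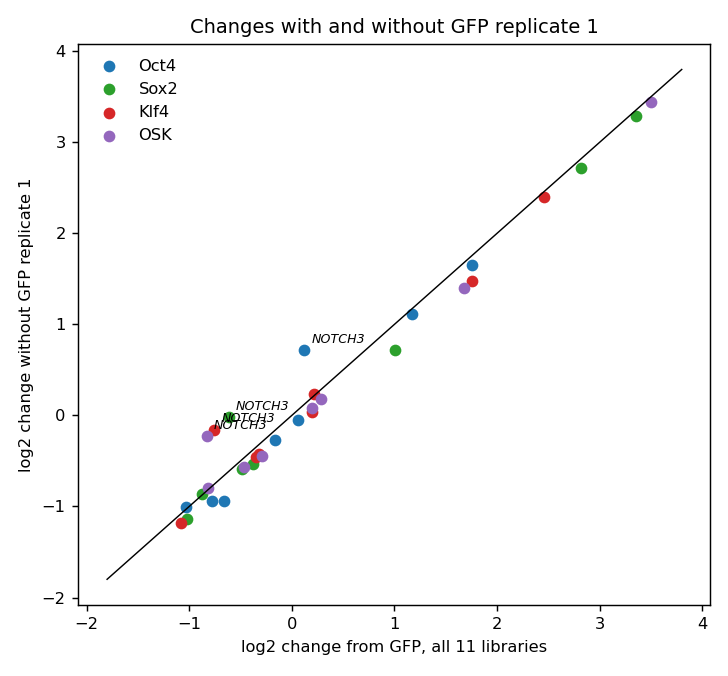
Log2 change from GFP with all 11 libraries (horizontal axis) and without GFP replicate 1 (vertical axis) for the 8 tested genes in 4 lines, with the line of equality. NOTCH3 moved by 0.60 in each line, HES4 by -0.28, and every other gene by less.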

How the data were processed

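Polyadenylated RNA from 11 ARPE-19 libraries was analysed from the deposited table of normalised counts. The unit is a signal: per the file values, the authors' gene counts were divided by 1 factor per library and deposited rounded to 2 decimals. STAR 2.7.1a and featureCounts 1.6.2 are named in the submitters' processing notes with builds GRCh38 and mm10, and the use of strand and the annotation are not given in the sources used here. Whole reads were recovered by dividing by the value of 1 read. Of values up to 200, 100% came out whole (tolerance 0.0061), and for GFP replicates 1 and 2, whose step was near 1 (0.993 and 1.01), this rests on 33758 and 17292 values that part from whole numbers.

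Because the table holds no raw counts, limma 3.58.1 (R 4.3.3, eBayes with trend) was fitted to log2(value + 1) of all 11 libraries with 1 mean per group (6 residual and 9.21 prior degrees of freedom). Small values are understated on this scale. Genes had to reach 10 in 2 or more libraries, and adjusted p-values under 0.05 were called. The procedure was also run on simulated data, in which no library stood apart as GFP replicate 1 and OSK replicate 1 did. That run therefore does not bear on the effect of those libraries. Alternatives were edgeR 4.0.16 (TMM or median-of-ratios factors) and DESeq2 1.42.0 on recovered reads, which called 6774, 6846 and 5943 genes for Oct4 against GFP, where limma called 7018, pseudocounts of 0.5 and 5, no filter, a mean of at least 20, a fit of the compared groups alone, a block for the replicate number, and single libraries left out. Exon lengths and positions came from GENCODE release 29 (GRCh38).

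All 10 genes were named whatever their values. Of 52 other pathway genes, each comparison with GFP named at most the 3 largest rises and falls that passed. ADAM10, NCSTN, RBPJ, MAML1, DLL1, DLL3, DLK2 and NOTCH4 were added by role after their values were seen. Some genes of the list enter the counts but are not reported here by name or plotted. Like patterns were the 3 highest correlations for the 3 most variable genes. The genes and lists were chosen with earlier results of these data known.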

Additional observations from a re-analysis of the deposited data

How the results depend on the processing

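Over 88 pairs of a gene and a comparison, 49 passed the test and 35 of these kept their call under every alternative run. No called value changed direction, and 22 sign changes concerned values that passed in neither fit. Of 1840 values, 57 lost and 22 gained a call. The number of genes called with Klf4 against GFP was 4, and 2 when GFP and Klf4 were fitted alone, where HEY1 and NOTCH2 missed the threshold on fewer libraries. Leaving out 1 library gave 3 to 6 genes for OSK against Oct4 (3 without Oct4 replicate 1 or either OSK library), 1 to 3 for OSK against Sox2 (1 without Sox2 replicate 1 or OSK replicate 1), 2 to 6 for Oct4 against Sox2 (2 without Sox2 replicate 1, 3 without Oct4 replicate 2 or Sox2 replicate 2) and 3 to 6 for Sox2 against Klf4 (3 without Klf4 replicate 1). A line left with 1 library was assumed to vary like the others. With the replicate number as a block, 4, 5, 3 and 5 genes were called against GFP with Oct4, Sox2, Klf4 and OSK. The block ended the calls of HES4 with Oct4 (-0.58, adjusted p = 0.0695), NRARP with Sox2 (-0.82, adjusted p = 0.0805), NOTCH2 with Klf4 (-0.25, adjusted p = 0.0507) and NOTCH2 in OSK against the sum (0.37, adjusted p = 0.139), and NOTCH3 passed in OSK (-1.18, adjusted p = 0.0386). It changed no other call of the 8 genes tested. GFP replicate 3 has no partner and drops out of that fit. Same-numbered libraries did not deviate together (r from -0.07 to 0.04 outside the pairs of GFP and OSK, which had 0.44 and 0.31), so the numbers were not taken as pairs. No filter moved the median log2 change of all genes from -0.02 to -0.33 with Oct4. DLL4 and HEYL, at most 7 reads outside GFP replicate 1, are limited by depth.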
